A study of Mus musculus with 2 samples.

Results

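The 10 genes described here encode the core of transforming growth factor beta (TGF-beta) signalling: the ligand gene Tgfb1, the receptor genes Tgfbr1 and Tgfbr2, the signal transducers Smad1, Smad2, Smad3, Smad4 and Smad5, the inhibitory Smad7 and the co-repressor Ski. They were picked by gene name, at a time when earlier results of these arrays were already known, from the 18193 genes that the platform annotation names on the array. Each probe set (a group of short oligonucleotides read out as 1 signal) that the annotation gives to exactly 1 of these genes was taken, 26 of 34945 in all. Smad2 and Smad5 have been reported in other work as direct targets of the microRNA miR-155.

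The groups were dendritic cells of miR155-/- mice, which lack the microRNA, treated with lipopolysaccharide (LPS), and dendritic cells of wild-type mice treated with LPS. Both were C57BL/6J, and both were represented by a single Affymetrix array, so there were no replicates, no p-value could be computed and every difference is between these 2 arrays. The cells had been raised from bone marrow with the growth factor GM-CSF at 20 ng/ml for 7 days and then received 10 ng/ml of LPS, the outer-membrane glycolipid of Gram-negative bacteria that innate immune cells sense through TLR4; no untreated cells were analysed here, so nothing can be said of the response to LPS. The sex and age of the mice, the number of mice behind a sample and the length of the LPS exposure are given nowhere in the labels. The labels call the cells dendritic cells except in the growth protocol, which names macrophages, and they were cultured and measured in bulk, so fewer cells of a type and less RNA per cell cannot be told apart.

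TGF-beta binds the type II receptor Tgfbr2, which recruits and phosphorylates the type I receptor Tgfbr1. That receptor phosphorylates Smad2 and Smad3, whereas the related bone morphogenetic protein (BMP) receptors act on Smad1 and Smad5. The activated Smads pair with Smad4 and enter the nucleus, Smad7 blocks the receptor, and Ski holds Smad complexes in a repressed state. In dendritic cells TGF-beta is known for restraining maturation and for its need in Langerhans cell development. A microRNA can lower target transcripts by pairing with them, mainly through its seed, bases 2 to 8 from the 5′ end. Loss of the microRNA can then leave a target transcript higher. Only RNA was measured, so an effect of miR-155 on the protein of a target cannot be seen here.

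The microRNA absent from the knockout is shown because the Smad2 and Smad5 comparison turns on it. The sequences are those of RefSeq for GRCm38.p6, plus strand, with the hairpin at chr16:84714140-84714204, the 5p arm at chr16:84714143-84714165 and the 3p arm at chr16:84714182-84714202. Capitals mark the seed in the mature forms, and the 5p arm within the hairpin.
mmu-miR-155-5p: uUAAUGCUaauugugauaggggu
mmu-miR-155-3p: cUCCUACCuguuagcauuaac
Mir155 hairpin: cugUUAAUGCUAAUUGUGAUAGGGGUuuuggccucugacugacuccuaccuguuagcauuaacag
Of 1679 named mature mouse microRNAs in the same table, only miR-155-5p carried the seed UAAUGCU, whose full complement in a target transcript reads AGCAUUA. Target sites in the Smad transcripts were not analysed here.

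Signals below are intensities after quantile normalization, which gives both arrays the same distribution, so that a difference is relative to the bulk of all probe sets. Differences are miR155-/- minus wild type on the log2 scale. The floor, the median of all normalized values, was an intensity of 67.6; it is a choice of this work and no detection call, and "measured" means above it on either array. Where 1 array lay at or under the floor, the difference is written as "at least". Probe sets of the same gene disagreed with an SD of 0.29 over 11653 probe sets of 4410 genes, which is the only error that can be estimated here and holds no variation between mice or cultures.

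The median deposited intensity was 78.3 on the miR155-/- array and 58.4 on the wild-type array, so that at the median probe set the knockout signal was 1.41 times the wild-type one before normalization. The 18S ribosomal RNA controls read 389 to 582 on the miR155-/- array and 95.1 to 126 on the wild-type array, and their part in the results was not tested. The 3′ to 5′ ratio of the Actb controls was 1.25 in miR155-/- and 1.28 in wild type. Mir155hg, the host transcript of the microRNA, had a normalized signal of 159 in miR155-/- cells and 1136 in wild-type cells, 7.13-fold lower, and the labels do not say whether this probe set falls within the deletion. All 9 listed dendritic cell markers were measured. After quantile normalization 3 were higher and 6 lower in miR155-/- cells, with summed signals of 31606 in miR155-/- and 37194 in wild type. The integrin gene Itgax (0.31) and Flt3, above the floor in miR155-/- cells only, were among the higher ones. Irf8 (-0.66), Cd83 (-0.64), Ccr7 (-0.55) and Zbtb46 (-0.43) had the lowest differences. These directions depended on the scaling. In deposited intensity H2-Ab1 read 4706 in miR155-/- and 3675 in wild type, Cd74 12522 and 10330, and Zbtb46 167 and 155. Irf8 (3484 and 3791), Cd83 (4367 and 4701) and Ccr7 (5148 and 5323) stayed lower.

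All 10 genes were measured, and they differed little between the genotypes. Only Tgfbr1, the type I receptor gene, was at least 1.5-fold higher in miR155-/- cells, 1 of 10 against 4.57% of all 11878 measured genes, and that rested on 1 of its 3 probe sets. None was at least 1.5-fold lower, against 4.1% of all measured genes, and none passed 2-fold in either direction, against 1.19%. Each gene was represented by the probe set whose mean level over the arrays was highest. On that basis 8 genes lay higher in miR155-/- cells and 2, Smad1 and Smad7, lower, where 51.5% of all measured genes lay higher. This split depended on the scaling: 9 lay higher with the arrays centred on the median. All 10 did with scaling on hybridisation controls and on the deposited values. After quantile normalization the differences ran from -0.20 to 0.63 with a median of 0.06, against a median of 0.01 over all measured genes. The median size of the difference regardless of sign was 0.08 in the 10 genes and 0.19 in all measured genes. Over measured probe sets it was nearly the same, 0.19 in the 23 of the 10 genes and 0.20 in all 20607. For 8 of the 10 genes (80.0%) the difference was smaller than the probe set SD, as it was for 67.3% of all measured genes.

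**Figure D1:**
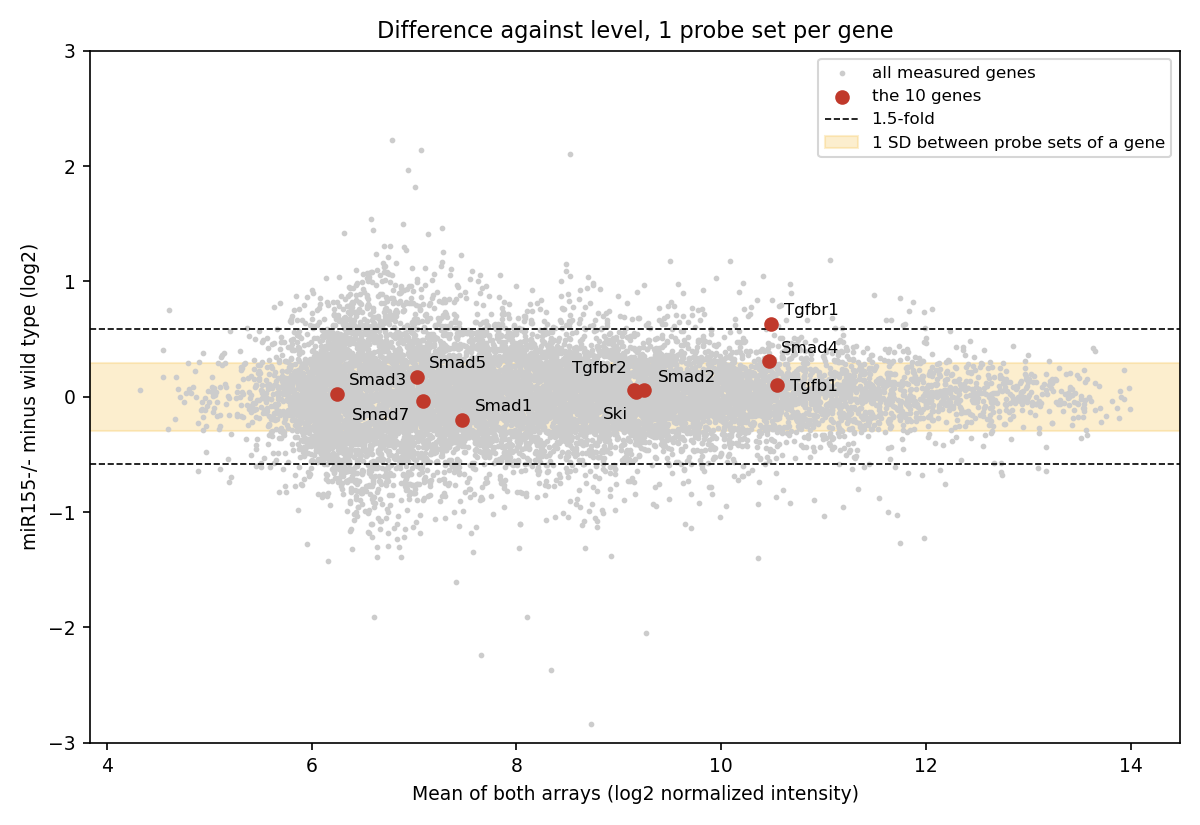
Difference between the miR155-/- and wild-type arrays (log2, vertical axis) against the mean level over both arrays (log2 normalized intensity, horizontal axis), 1 probe set per gene, for the 10 genes (red, named) and 11878 measured genes (grey). Dashed lines mark 1.5-fold and the band is the SD of 0.29 between probe sets of a gene; Tgfbr1 at 0.63 lies above the upper line, Smad4 at 0.31 just above the band, and the other 8 within it.

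The ligand gene Tgfb1, whose product is secreted as a latent complex and acts on most leukocytes, had a normalized signal of 1547 in miR155-/- cells and 1442 in wild-type cells. The difference of 0.10 was under the probe set SD. Its second, dimmer probe set read 144 in miR155-/- and 109 in wild type, a difference of 0.40, so both lay higher in the knockout.

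The type I receptor gene Tgfbr1 had the largest difference among the 10. Its probe set 1420895_at read 1789 in miR155-/- cells and 1152 in wild-type cells, 1.55-fold higher (0.63). A difference of this size or more in either direction was seen in 6.90% of measured genes. With all measured probe sets split by level into 3 equal parts, 1420895_at lay in the brightest, of which 2.1% were at least 1.5-fold higher. The other 2 probe sets of Tgfbr1 were dim and pointed the other way. Probe set 1420894_at read 74.7 in miR155-/- and 86.6 in wild type (-0.21), and 1420893_a_at read 66.8 in miR155-/- and 85.1 in wild type, at least 1.26-fold lower. With the 3 probe sets averaged, Tgfbr1 had a difference of 0.03, so the call holds for the bright probe set alone. Its probe sets thus spanned at least 0.97, since the lowest value is a bound.

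The type II receptor gene Tgfbr2, whose kinase starts the cascade, read 579 in miR155-/- cells and 556 in wild-type cells at its only measured probe set, a difference of 0.06. Its other 2 probe sets lay under the floor on both arrays, at 31.2 and 16.7 in miR155-/- and at 32.9 and 17.9 in wild type. The pair of receptor genes therefore had a difference past 1.5-fold at 1 of 4 measured probe sets. Of all measured probe sets, 4.77% were as much higher and 4.67% as much lower.

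**Figure D2:**
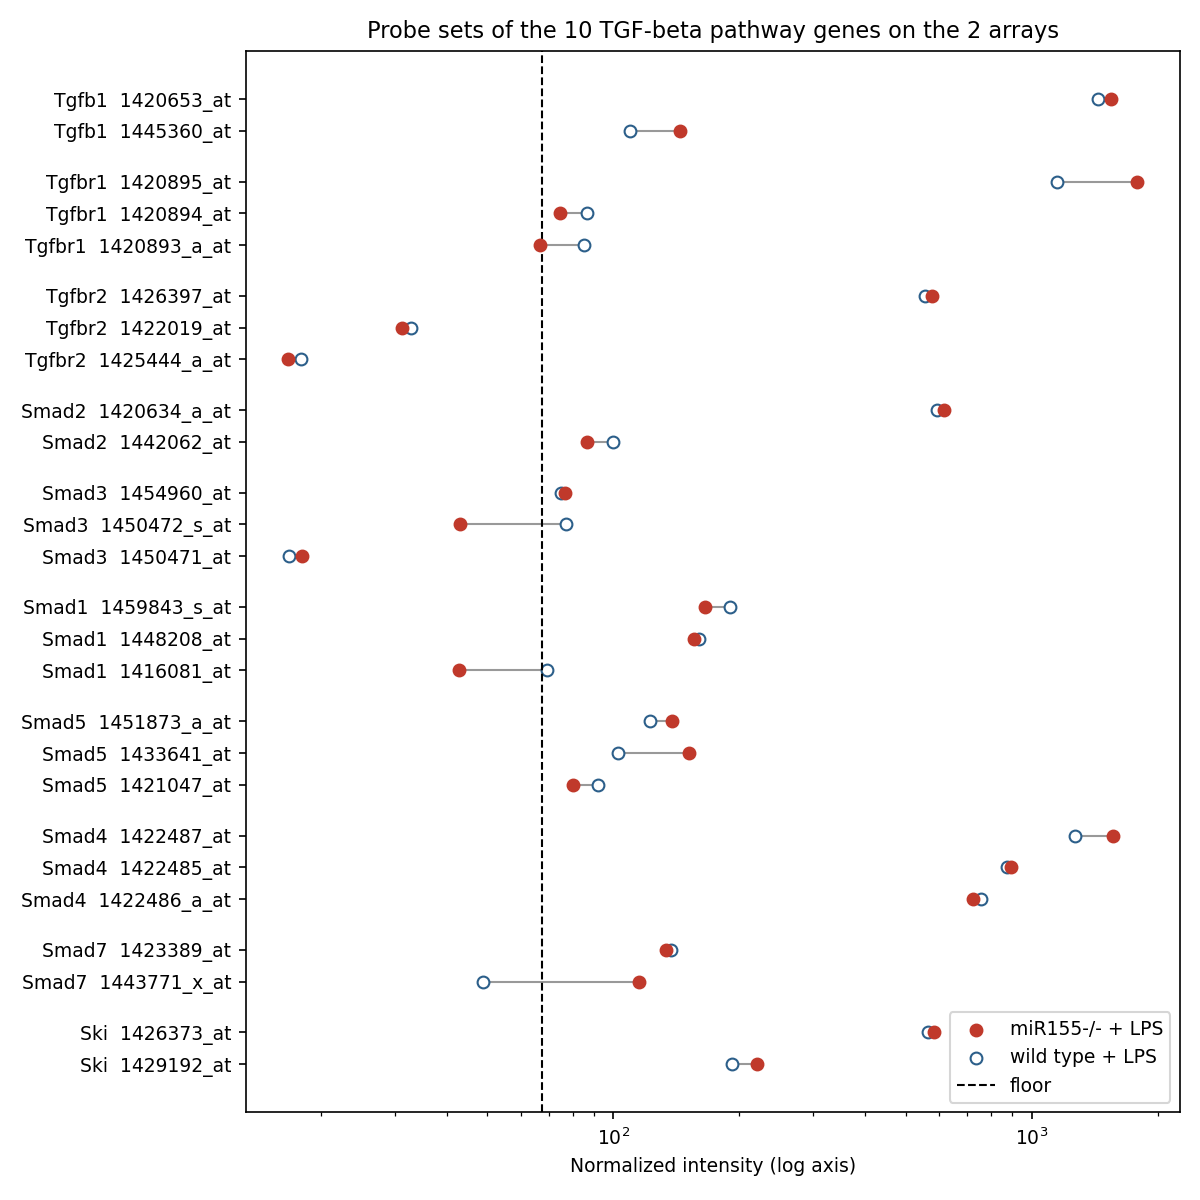
Normalized intensity (log axis) of all 26 probe sets of the 10 genes, 1 row per probe set, in miR155-/- cells (filled) and wild-type cells (open), with the floor of 67.6 as a dashed line. The widest gaps above the floor on both arrays are those of Tgfbr1 1420895_at (1789 and 1152) and Smad5 1433641_at (151 and 102), and 3 probe sets lie under the floor on both arrays.

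Smad2, a transducer of the TGF-beta and activin branch and a reported miR-155 target, did not stand out. Its brighter probe set read 617 in miR155-/- cells and 593 in wild-type cells, a difference of 0.06, and 82.9% of measured genes had a difference at least as large in either direction. The dimmer probe set 1442062_at read 86.6 in miR155-/- and 99.6 in wild type, a difference of -0.20. The 2 probe sets thus lay on opposite sides of 0, both within the probe set SD, and their mean was -0.07.

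Smad3, which acts in the same branch and binds DNA directly, was close to the floor. Probe set 1454960_at read 76.6 in miR155-/- cells and 75.1 in wild-type cells, a difference of 0.03. Probe set 1450472_s_at read 42.9 in miR155-/- and 77.1 in wild type, at least 1.14-fold lower, and 1450471_at was under the floor on both arrays. At these signals a change of Smad3 transcript would be hard to see, and its small difference does not show that the gene was unchanged.

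Smad5, a transducer of the BMP branch and the other reported miR-155 target, was higher in miR155-/- cells at 2 of 3 probe sets. Probe set 1451873_a_at, which stood for the gene, read 138 in miR155-/- and 122 in wild type, a difference of 0.17. Probe set 1433641_at read 151 in miR155-/- and 102 in wild type, 1.48-fold higher (0.56), just short of 1.5-fold. The third, 1421047_at, read 80.0 in miR155-/- and 92.0 in wild type, a difference of -0.20. The mean of the 3 was 0.18, which cannot be set against the probe set SD, since that holds for single probe sets. The range between the 3 was 0.77. With values under the floor set to it, 14.5% of the 5163 genes with at least 2 measured probe sets had one as wide. All 3 signals were low, and when all measured probe sets were split by level into 3 equal parts, 7.35% of the dimmest part, which holds 1433641_at, were at least 1.5-fold higher against 2.1% of the brightest.

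Smad1, the close relative of Smad5 in the BMP branch, lay slightly lower in miR155-/- cells at all 3 probe sets after quantile normalization. Probe set 1459843_s_at read 166 in miR155-/- and 190 in wild type, a difference of -0.20. Probe set 1448208_at read 155 in miR155-/- and 160 in wild type (-0.05), and 1416081_at read 42.8 in miR155-/- and 69.5 in wild type, at least 1.03-fold lower. None passed the probe set SD, and the sign of the value that stands for Smad1 turned with the scaling: it was 0.02 when the arrays were scaled on hybridisation controls and 0.35 on the deposited values.

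Smad4, the partner that both branches share, had the second highest difference of the 10 genes. Probe set 1422487_at read 1569 in miR155-/- cells and 1268 in wild-type cells, 1.24-fold higher (0.31). Probe set 1422485_at read 892 in miR155-/- and 876 in wild type (0.03), and 1422486_a_at read 723 in miR155-/- and 757 in wild type (-0.07). Of the 3 bright probe sets only 1 thus lay beyond the probe set SD, and their mean was 0.09.

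Smad7, the inhibitory Smad that TGF-beta itself induces and that targets the type I receptor for degradation, had probe sets that disagreed. Probe set 1423389_at read 134 in miR155-/- cells and 138 in wild-type cells, a difference of -0.04. Probe set 1443771_x_at read 115 in miR155-/- and 48.8 in wild type, at least 1.70-fold higher; the ending _x_at marks probe sets some of whose probes can also match other transcripts. The 2 probe sets were thus at least 0.81 apart.

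Ski, which recruits histone deacetylase complexes to Smad-bound genes, lay marginally higher in miR155-/- cells. It read 584 in miR155-/- and 565 in wild type at 1426373_at (0.05), and 221 in miR155-/- and 193 in wild type at 1429192_at (0.20). Both differences were within the probe set SD.

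Over all 26 probe sets, 23 were measured, and 19 exceeded the floor in each genotype. Of the 23, 13 lay higher and 10 lower in miR155-/- cells, where 50.9% of all 20607 measured probe sets lay higher. Their median difference was 0.03, against 0.01 over all measured probe sets. At least 1.5-fold higher were 2 of 23, Tgfbr1 1420895_at and Smad7 1443771_x_at, against 4.77% of all measured probe sets, and 0 of 23 were as much lower, against 4.67%. Of the 9 genes with at least 2 measured probe sets, 6 had probe sets on both sides of 0 (Tgfbr1, Smad2, Smad3, Smad4, Smad5 and Smad7), and so had 53.6% of all such genes. Tgfb1 and Ski were higher at each measured probe set and Smad1 lower at each, on the quantile-normalized scale. The 7 genes with at least 2 probe sets above the floor on both arrays had an SD between probe sets of 0.30, close to the 0.29 of all genes. Smad2, Smad4 and Smad7, which all lie on chromosome 18, had differences of 0.06, 0.31 and -0.04.

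**Figure D3:**
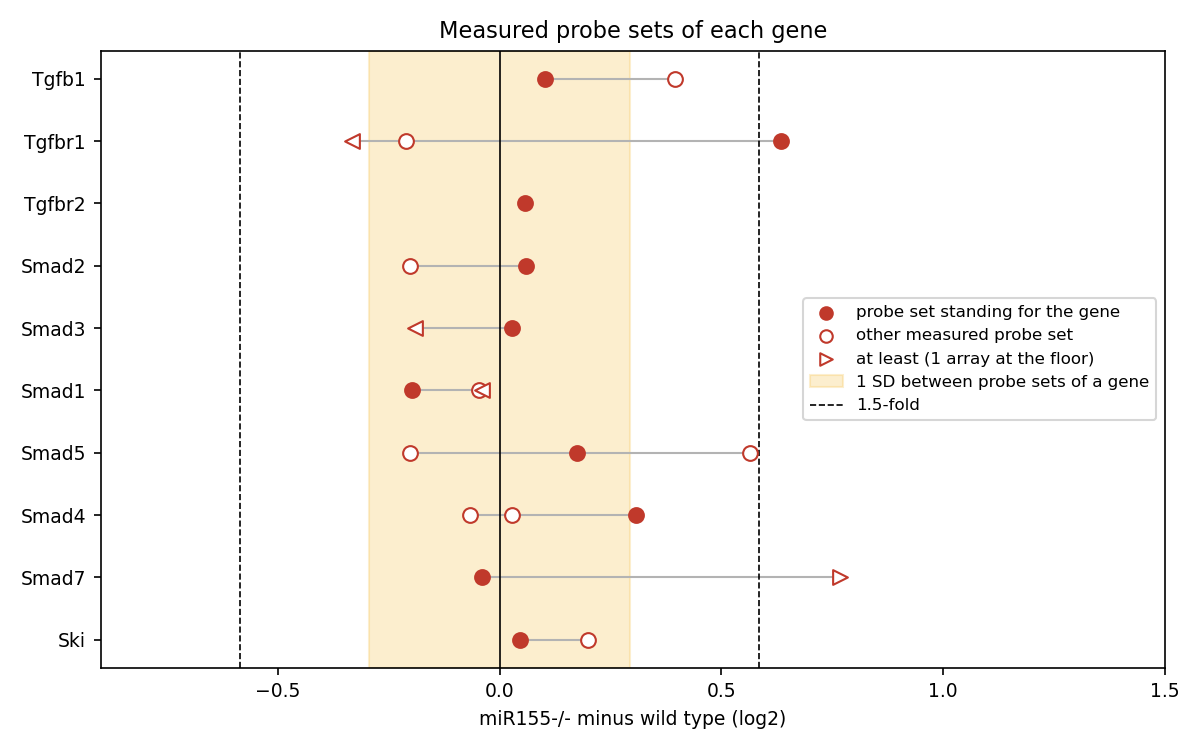
Difference between the miR155-/- and wild-type arrays (log2, horizontal axis) at each of the 23 measured probe sets, by gene; filled points stand for the gene, open points are its other probe sets, and triangles are bounds with 1 array at the floor. Dashed lines mark 1.5-fold and the band is the SD of 0.29; the points of Tgfbr1 and Smad7 span at least 0.97 and 0.81, both with a bound at one end, and those of Smad5 span 0.77.

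The distance of the 10 genes from 0 depended on the scaling of the arrays. In deposited intensity all 10 were higher in miR155-/- cells, where only 8.88% of all measured genes were lower. Of the 26 probe sets 24 were higher, and the median difference of the 10 genes was 0.67. The median of all measured genes on the same scale was 0.54, so this is 0.13 above it. With the arrays centred on the median, the 10 genes had a median of 0.25 against 0.14 for all measured genes, and with scaling on hybridisation controls 0.34 against 0.23. Tgfbr1 was the highest and Smad1 the lowest of the 10 under each of these scalings, with Tgfbr1 at 0.80 when centred, 0.90 with hybridisation controls and 1.23 in deposited intensity.

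**Figure D4:**
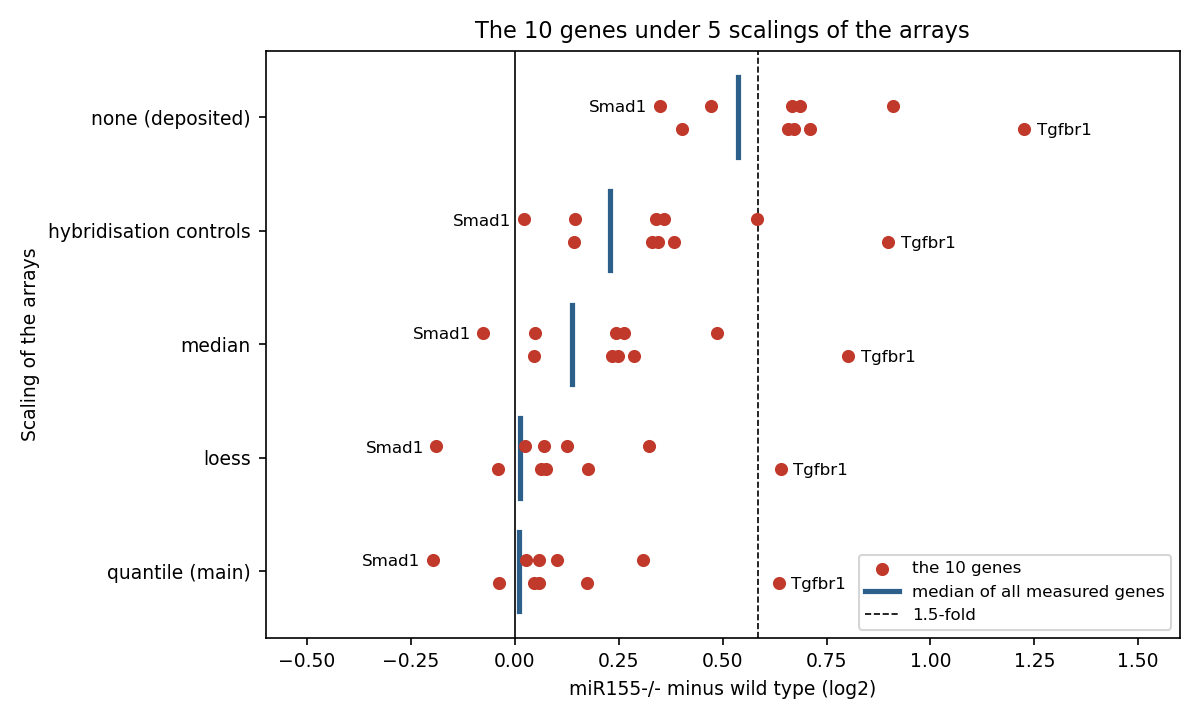
Differences between the miR155-/- and wild-type arrays (log2, horizontal axis) of the 10 genes (red) under 5 scalings of the arrays (rows), with the median of all measured genes as a blue bar and 1.5-fold as a dashed line. The 10 genes shift with the bar, their median being 0.67 with no scaling and 0.06 with quantile normalization, and Tgfbr1 lies past 1.5-fold in each row.

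The remaining machinery of the pathway was covered by a list of 92 genes, chosen like the core genes with earlier results known. Of these, 70 were measured at the probe set that stood for them, 17 lay under the floor on both arrays at that probe set (1 of them, Bmp1, had another that was measured), and 5 had no probe set naming them alone. Of the 70, 28 were higher and 42 lower in miR155-/- cells, where 48.5% of all measured genes were lower. The median difference of the 70 was -0.07, against 0.01 over all measured genes. At least 1.5-fold lower were 8 of 70 (11.4%), against 4.1% of all measured genes, and 1 of 70 was as much higher, against 4.57%. In deposited intensity 11 of the 70 (15.7%) were lower in miR155-/- cells, against 8.88% of all measured genes. These included all 8, some by little. There Inhba read 3283 in miR155-/- and 3404 in wild type, Cdkn2b 720 and 747, Runx3 411 and 426, and Zeb1 310 and 313. The widest gap was that of Vegfa, at 216 in miR155-/- and 314 in wild type. The count depended on the scaling: with centring on the median 2 of 70 were at least 1.5-fold lower, against 2.91% of all measured genes, and with hybridisation controls 1 of 69, against 1.96%. The median of the other pathway genes was then 0.06 with centring and 0.16 with hybridisation controls, under the medians of 0.14 and 0.23 of all measured genes on the same scales.

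Among ligands, Inhba, which encodes the activin A subunit, read 2687 in miR155-/- cells and 4103 in wild-type cells, 1.53-fold lower. Of the 10 listed ligand genes, only Inhba and Bmp7 were measured at the probe set that stood for them, and 6, among them Tgfb2 and Tgfb3, had every probe set under the floor on both arrays. Of 8 measured genes for latency and activation of TGF-beta, 2 were at least 1.5-fold lower, against 4.1% of all measured genes. Itgav, the integrin chain that helps free TGF-beta from its latent complex, read 924 in miR155-/- and 1492 in wild type (1.61-fold), with both measured probe sets lower. Thbs1, a matrix protein gene whose product activates latent TGF-beta, read 5408 in miR155-/- and 8507 in wild type (1.57-fold), again with both lower.

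Of 12 measured receptor and co-receptor genes, 4 were higher and 8 lower, and 2 differed by at least 1.5-fold in either direction, against 8.67% of all measured genes. Nrp1, a co-receptor that binds TGF-beta, semaphorins and VEGF, read 1248 in miR155-/- cells and 656 in wild-type cells, 1.90-fold higher, with differences of 0.26 to 0.93 over its 4 measured probe sets. Bambi, a decoy receptor without a kinase, read 69.1 in miR155-/- and 106 in wild type, 1.53-fold lower and close to the floor. The third TGF-beta receptor gene Tgfbr3, which presents ligand, had a difference of -0.25 (146 in miR155-/-, 174 in wild type), while its other probe set had 0.45.

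The 20 measured genes of other Smads and Smad regulators resembled the 10 core genes in size of difference, with a median of -0.04. Of the 20, 0 passed 1.5-fold in either direction at the probe set that stood for them, against 8.67% of all measured genes. Some of their other probe sets went further. Those of Strap, all 3 higher, had differences from 0.10 to 1.22, and those of Usp15 from -0.24 to 0.83. For 18 the difference was smaller than the probe set SD, as it was for 67.3% of all measured genes. Smad6, the inhibitory Smad of the BMP branch, read 116 in miR155-/- and 118 in wild type. Skil, the Ski-related co-repressor gene, read 2397 in miR155-/- and 2873 in wild type (-0.26), with its second probe set at -0.70. At the probe sets that stood for the genes, the largest differences were those of Zfyve9, which anchors Smad2 and Smad3 at the receptor (-0.34), and the co-repressor gene Tgif1 (-0.30).

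Of 8 measured DNA-binding partners and co-activators, 2 were at least 1.5-fold lower, again against 4.1% of all measured genes. Runx3, a transcription factor needed for normal dendritic cell responses to TGF-beta in mice, read 337 in miR155-/- and 525 in wild type (1.56-fold), while its dimmer probe set had a difference of 0.26. Zeb1, a repressor, read 254 in miR155-/- and 383 in wild type (1.51-fold), with all 3 measured probe sets lower. The 9 kinases and adaptors of the Smad-independent branch had a median of 0.08. None passed 1.5-fold in either direction at the probe set that stood for it, against 8.67% of all measured genes. There the largest differences were those of the TAK1-binding protein genes Tab3 (0.41) and Tab2 (0.31). The measured probe sets of Mapk14 ranged more widely, from -0.69 to 0.51.

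Among 11 measured genes known to respond to TGF-beta, 7 were lower and 4 higher, where 48.5% of all measured genes were lower. Their median difference was -0.19, against 0.01 for all measured genes, and 2 of the 11 were at least 1.5-fold lower, against 4.1%. Vegfa, the endothelial growth factor gene, read 179 in miR155-/- cells and 385 in wild-type cells, 2.15-fold lower at this probe set, while the second measured one had -0.06. Cdkn2b, a cell cycle inhibitor gene that TGF-beta induces in epithelial cells, read 582 in miR155-/- and 921 in wild type, 1.58-fold lower. Tgfbi had the largest difference of the 4 higher genes, reading 14699 in miR155-/- and 10965 in wild type (0.42). All 4 of its measured probe sets were higher. These genes answer to many other signals, LPS included, so the list is not a readout of TGF-beta activity.

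**Figure D5:**
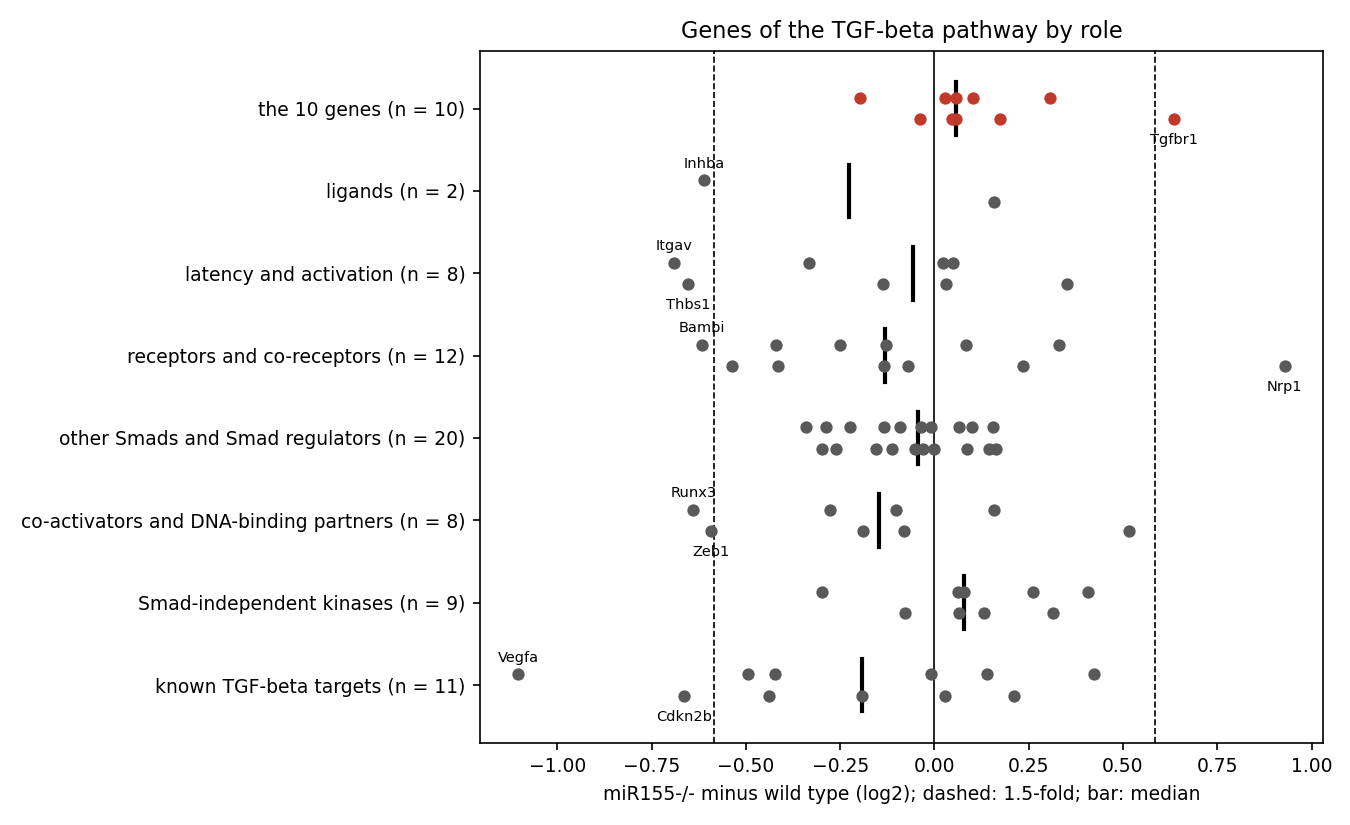
Difference between the miR155-/- and wild-type arrays (log2, horizontal axis) for the 10 core genes (red) and the 70 other measured pathway genes (grey) by role, with the median of each row as a bar and 1.5-fold as dashed lines; genes past 1.5-fold are named. With 1 probe set per gene, the 20 other Smads and Smad regulators lie between -0.34 and 0.16, and the 8 genes past 1.5-fold on the lower side belong to 5 other roles.

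Markers of other cell types also differed between the arrays. Of 7 B and plasma cell markers, 4 were measured and all 4 were lower in miR155-/- cells at the probe set that stood for them. Their summed signal was 325 in miR155-/- and 1522 in wild type. Of the 8 measured probe sets of Ighm, 3 were higher and 5 lower. Cd79a and Pax5 lay under the floor on both arrays. Of 6 mast cell and basophil markers, 5 were measured and all 5 were lower, Kit by only -0.05, and Fcer1a was under the floor on both arrays. The summed signal of the 5 was 1630 in miR155-/- and 3163 in wild type. Most of it came from Hdc, at 1411 in miR155-/- and 2624 in wild type. Of 7 granulocyte markers, 6 were lower and 1 higher, with sums of 7831 in miR155-/- and 6886 in wild type; without S100a8, the single higher one and most of the sum, they were 1738 in miR155-/- and 2369 in wild type. Of 6 macrophage markers, 5 were higher and 1 lower, with sums of 27791 in miR155-/- and 24647 in wild type. Of 6 T and NK cell markers, 3 were measured, 2 higher and 1 lower, with Cd3e and Cd3g under the floor on both arrays and sums of 372 in miR155-/- and 458 in wild type. Of 6 stromal markers, 4 were measured, 1 higher and 3 lower, with sums of 1011 in miR155-/- and 1134 in wild type. These directions are those of the quantile-normalized scale, and some turned on the deposited values. There Camp read 280 in miR155-/- and 276 in wild type, S100a9 1288 and 1135, and Kit 155 and 113. Jchain stayed lower, at 109 in miR155-/- and 355 in wild type, as did Mcpt8, at 31.1 and 150. The part of these cell types in the values of the 10 core genes and the other pathway genes was not tested.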

How the data were processed

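RNA of 2 bulk cultures was measured, 1 array per genotype. The authors deposited 1 table of linear intensity values for 45101 probe sets, per the file headers; neither the algorithm nor any scaling or detection call is stated there. From 6 ug of RNA, cRNA was labelled with biotin, per the labels' protocols. The 64 control probe sets were left out and the log2 intensities of the other 45037 were quantile normalized. Values under the median were set to it (the floor). Genes came from the platform annotation (34945 probe sets naming 1 gene, 932 several, 9160 unnamed here), with symbols updated through the RefSeq gene table of GRCm38.p6. Each gene was represented by its probe set with the highest mean. A size rule of 1.5-fold replaced a test, since 1 array per group leaves no spread; the number of arrays limits the precision. The members and lists were chosen with earlier results of these data known. Named pathway genes were, per role, those past 1.5-fold, otherwise the 2 with the largest difference, and Tgfbr3, Smad6 and Skil always. Tgfbi was added as the highest of the genes known to respond to TGF-beta. The scaling, floor and choice of probe set were varied. The procedure was tested on simulated data (200 changed probe sets). Python 3.11.15, numpy 2.4.6, pandas 2.3.3 and statsmodels 0.14.6 were used.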

Additional observations from a re-analysis of the deposited data

How the results depend on the processing

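Leaving the arrays unscaled moved most values: in deposited intensity 7 of the 10 genes were at least 1.5-fold higher (43.5% of all measured genes), the median difference of the 10 was 0.67, Smad2 had 0.67, Smad5 0.69, and the other pathway genes a median of 0.42. With the mean of all measured probe sets of a gene, 0 of the 10 genes were at least 1.5-fold higher, against 3.57% of all measured genes. Tgfbr1 then had 0.03 and Smad7 had 0.36. The other 92 of 108 recomputed values moved by less than the probe set SD of 0.29 or kept their count. Besides no scaling, the settings were median centring, hybridisation controls, loess, no floor, a floor at the 75th percentile, averaged probe sets, and leaving out _x_at and _s_at probe sets. The tally is no measure of stability, since many values could not move. With no floor the 10 genes kept identical values, because the probe sets that stood for them lay above it on both arrays. Leaving out _x_at and _s_at probe sets changed only Smad1 among them. With hybridisation controls the median of the 10 went from 0.06 to 0.34, just short of that SD. Smad1, Smad3, Smad5 and Smad7 were not measured with the higher floor. Of the other pathway genes, 8 of 70 were at least 1.5-fold lower as reported, against 4.1% of all measured genes. With loess it was 8 of 69 against 3.94%, and with averaged probe sets 5 of 71 against 3.60%. With centring it was 2 of 70 against 2.91%, with hybridisation controls 1 of 69 against 1.96%, and unscaled 0 of 74 against 0.50%. No paired analysis was possible because each genotype has 1 array, and no replicate could be left out for the same reason. Dim probe sets near the floor (Smad3, Smad5, Smad7) limit what can be seen for those genes.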
